A study of Macaca fascicularis with 3 samples.

Results

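The collagen genes of extraocular muscle (EOM) and quadriceps femoris muscle (QFM) of the cynomolgus macaque were followed across cell classes in 3 single-cell and single-nucleus libraries. A gene was counted as a collagen when its symbol was COL, digits, A, digits, with COL24A1, COL25A1 and COL6A6 left out. This rule found 40 genes. The nuclei tables hold 33 of them among 38550 features and the cell table holds all 40 among 33368 features. By the structure of their proteins, 10 are fibril-forming, 6 form the basement membrane network, 6 are beaded filament or related collagens, 9 are fibril-associated, 3 are short-chain, 3 are transmembrane, 2 are multiplexins and 1 is the anchoring collagen COL7A1. COL6A1, COL6A2, COL7A1, COL9A3, COL15A1, COL18A1 and COL21A1 have a symbol in the cell table only.

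Collagens are trimers of alpha chains wound into a helix and secreted into the extracellular matrix. Fibril-forming types I, III and V build the connective tissue sheaths around muscle fibres, and fibril-associated types such as XII and XIV sit on the surface of those fibrils. Type IV forms the network of the basement membrane that encloses each muscle fibre, capillary and Schwann cell. The chains COL4A1 and COL4A2 assemble together in nearly all basement membranes, whereas COL4A3, COL4A4 and COL4A5 assemble together in restricted sites, best known from the kidney glomerulus and described at the neuromuscular junction of the mouse. Fibroblasts and fibro-adipogenic progenitors are the main known source of fibrillar collagens in muscle.

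The 3 libraries hold 12248405, 61618999 and 72590186 unique molecular identifiers (UMIs) in the order EOM cells, EOM nuclei and QFM nuclei. The groups were EOM cells, EOM nuclei and QFM nuclei of Macaca fascicularis, with 1 library each. The labels name no genotype, treatment, age or number of animals. For the QFM library the title says nuclei while its file names say single cells, so a ratio of EOM nuclei over QFM nuclei may also compare preparations. With 1 library per group no test between groups could be made, and every interval below covers counting error only.

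After filtering, 7097 EOM cells, 13781 EOM nuclei and 10457 QFM nuclei were kept, with median depths of 1142, 2817 and 4498 UMIs per barcode. Of their barcode sequences, EOM nuclei and QFM nuclei shared 33 among those kept, and neither shared any with EOM cells. A barcode was put in a class when it held at least 2 UMIs of 1 marker, none of the other class markers, and was not myosin-rich. The markers were PDGFRA for fibro-adipogenic cells, PTPRB for endothelium, NOTCH3 for mural cells, PAX7 for satellite cells (the muscle stem cells), CDH19 for Schwann cells and PTPRC for leukocytes. Myosin-rich barcodes, which stand for muscle fibres, held at least 5 UMIs and at least 0.5% of their UMIs from 6 myosin heavy chain genes, with fewer than 2 UMIs of each marker. NOTCH3 carries no symbol in the nuclei tables, so RGS5, another mural marker, was used for nuclei. In EOM cells both markers were used, and neither class left out cells with the other mural marker. Levels are UMIs of a gene scaled to 1000000 UMIs (CPM) and summed over the barcodes of a class. They were not divided by gene length, so each gene is compared with itself and not with other genes.

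PDGFRA-positive barcodes numbered 23 in EOM cells, 208 in EOM nuclei and 172 in QFM nuclei. PTPRB-positive barcodes numbered 301, 842 and 899 in the same libraries, RGS5-positive ones 468, 126 and 127, and CDH19-positive ones 111, 86 and 21. PAX7-positive barcodes numbered 271 in EOM nuclei and 314 in QFM nuclei and were not found among EOM cells, which allows at most 0.0520% of kept cells (exact Clopper-Pearson bound). Myosin-rich barcodes numbered 7516 in EOM nuclei and 4621 in QFM nuclei but 11 in EOM cells, so the fibre class is described in nuclei. NOTCH3-positive cells numbered 256. Each class was checked with lists of further marker genes, of which the mural list includes RGS5 itself. Fibro-adipogenic markers summed to 16344 CPM in PDGFRA-positive EOM nuclei and 22858 CPM in PDGFRA-positive QFM nuclei, endothelial markers to 12126 and 15457 CPM in the PTPRB-positive nuclei of EOM and QFM, and satellite cell markers, 4 of 6 with a symbol, to 1307 and 1751 CPM in their PAX7-positive nuclei. Fibro-adipogenic markers were at 3644 CPM in PAX7-positive EOM nuclei and 4827 CPM in PAX7-positive QFM nuclei, above the satellite cell sum in both, and at 1938 and 2219 CPM without LAMA2. Myofibre markers were higher still, at 5453 CPM in PAX7-positive EOM nuclei and 7024 CPM in PAX7-positive QFM nuclei. Schwann cell markers summed to 3431 CPM in CDH19-positive EOM nuclei and 4570 CPM in CDH19-positive QFM nuclei, where fibro-adipogenic markers stood at 9620 and 8759 CPM. Without LAMA2, a basement membrane laminin on that list that Schwann cells also make, the other 10 markers summed to 4940 CPM in CDH19-positive EOM nuclei and 4976 CPM in CDH19-positive QFM nuclei. The source of these counts and their part in the Schwann-class values were not tested. Mural markers summed to 4524 CPM in RGS5-positive EOM nuclei and 8982 CPM in RGS5-positive QFM nuclei. S100B, MBP, CLDN5, TTN, CKM and RYR1 are among the markers without a symbol in the nuclei tables.

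Summed over the 33 collagens of the nuclei tables, PDGFRA-positive nuclei held 3652 CPM in EOM against 6570 CPM in QFM. RGS5-positive nuclei held 4017 CPM in EOM against 4130 CPM in QFM, and CDH19-positive nuclei 3592 and 3745 CPM. PTPRB-positive nuclei held 1085 CPM in EOM against 2773 CPM in QFM, and PAX7-positive nuclei 2107 and 2010 CPM. Myosin-rich nuclei held 822 CPM in EOM against 1515 CPM in QFM. In PTPRC-positive nuclei 9 collagens were measured between the muscles, of which 3 were higher and 2 lower by at least 2-fold in EOM, beside 8.41% and 13.4% of all features. This leukocyte class serves here as the level of collagen RNA outside its main sources, and it held 603 CPM in EOM against 573 CPM in QFM. The PDGFRA, RGS5 and CDH19 classes thus held the most collagen RNA per UMI in EOM.

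**Figure D1:**
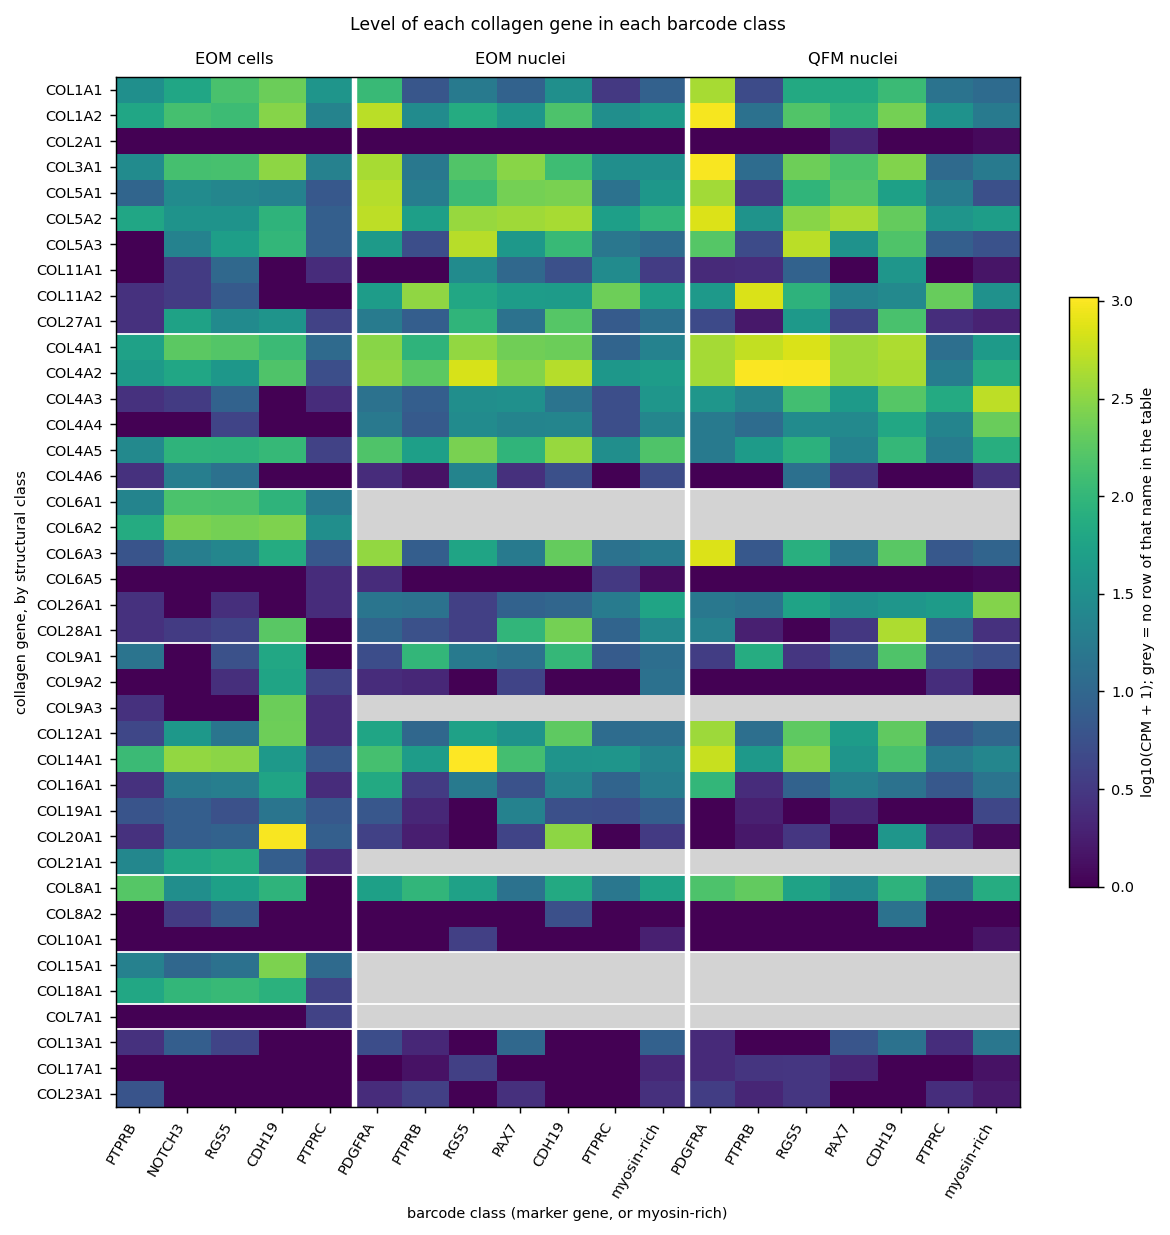
Level of each collagen gene (rows, by structural class) in each barcode class (columns) of EOM cells, EOM nuclei and QFM nuclei, as log10(CPM + 1) of the summed UMIs; grey marks genes with no row of that name. Read along a row: COL1A2 and COL6A3 are brightest in PDGFRA-positive nuclei of both muscles, COL28A1 in CDH19-positive nuclei, and COL4A3 and COL26A1 in the myosin-rich nuclei of QFM.

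Of the 27 collagens with at least 20 UMIs over the classes in both nuclei libraries, 19 had their highest class in common between EOM and QFM. PDGFRA-positive nuclei were highest for 7 of them, namely COL1A1, COL1A2, COL3A1, COL5A1, COL5A2, COL6A3 and COL16A1. RGS5-positive nuclei were highest for 4 (COL4A1, COL4A6, COL5A3 and COL17A1), CDH19-positive nuclei for 4 (COL4A5, COL9A1, COL27A1 and COL28A1), PTPRB-positive nuclei for 2 (COL8A1 and COL11A2) and myosin-rich nuclei for 2 (COL4A3 and COL26A1). For 9 of the 19 the 95% intervals of the highest and the next class were apart in both libraries, namely COL1A1, COL1A2, COL3A1, COL5A1, COL5A3, COL6A3, COL11A2, COL26A1 and COL28A1. For the other 10 they overlapped in at least 1 library, so their order is within counting error there. COL17A1 rested on 1 UMI in the RGS5-positive nuclei of each library, below the floor of 3, and COL4A6 on 8 UMIs in EOM and 6 in QFM. COL4A5 rested on 8 UMIs in CDH19-positive QFM nuclei. COL5A3 is the least widely expressed chain of type V collagen, and it reached 499 CPM in RGS5-positive EOM nuclei and 515 CPM in RGS5-positive QFM nuclei, against 107 CPM in CDH19-positive EOM nuclei and 169 CPM in PDGFRA-positive QFM nuclei as the next classes. COL28A1, known from peripheral nerve of the mouse, stood at 246 CPM in CDH19-positive EOM nuclei and 444 CPM in CDH19-positive QFM nuclei. COL9A1, a chain of the cartilage collagen type IX, stood at 103 CPM in CDH19-positive and 99.96 CPM in PTPRB-positive EOM nuclei, with 152 and 74.0 CPM in the same classes of QFM. Its order is within counting error in both muscles.

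Several fibrillar collagens and collagens that decorate fibrils were lower in PDGFRA-positive EOM nuclei than in PDGFRA-positive QFM nuclei. Of 19 collagens measured there (at least 20 UMIs over both libraries), 9 were lower and 1 was higher by 2-fold or more in EOM nuclei. Among all 8853 features measured in this class, 16.4% were at least 2-fold lower and 9.88% at least 2-fold higher. The median log2 ratio of the 19 collagens was -0.91, beside -0.08 for all features. COL12A1, a fibril-associated collagen, stood at 59.2 CPM in EOM against 382 CPM in QFM, for a log2 ratio of -2.69 (95% interval -3.19 to -2.22). COL14A1, another fibril-associated collagen, stood at 135 CPM in EOM against 588 CPM in QFM, for a log2 ratio of -2.12 (-2.45 to -1.80). COL1A1, the main chain of type I collagen, stood at 111 CPM in EOM against 418 CPM in QFM, for a log2 ratio of -1.91 (-2.28 to -1.55). All 3 genes were lower in EOM by more than 2-fold over the whole of their counting intervals. Fibro-adipogenic markers were lower in EOM nuclei of this class too, and proportionally more so once LAMA2 was left out. The other 10 then came to 8517 CPM for EOM nuclei, beside 15023 CPM for QFM nuclei. LAMA2 itself was nearly level, with 7827 CPM for EOM nuclei beside 7835 CPM for QFM nuclei. Tenocyte markers, with TNMD at 0 in both, stood at 16.9 CPM in EOM against 58.3 CPM in QFM in this class. Myofibre markers stood at 1849 CPM in EOM against 3887 CPM in QFM. The part of all these markers in the collagen ratios was not tested.

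The other fibril genes of this class ranged more widely. COL5A3 had a log2 ratio of -1.95 (-2.56 to -1.37), with 43.7 CPM in EOM against 169 CPM in QFM. COL3A1, which forms thin fibrils with type I, stood at 426 CPM in EOM against 974 CPM in QFM (log2 ratio -1.19), and COL6A3, a chain of the beaded filament collagen whose loss causes muscular dystrophy in humans, at 339 and 733 CPM (log2 ratio -1.11). COL1A2 had a ratio of -0.91 and COL5A2 of -0.51, both inside 2-fold. COL5A1, the defining chain of type V collagen, was at 478 CPM in EOM against 396 CPM in QFM, for a log2 ratio of 0.27 (0.05 to 0.50). Among the type V chains of this class, COL5A3 was thus past 2-fold lower while COL5A1 and COL5A2 were inside 2-fold.

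COL4A5 was the single collagen that was at least 2-fold higher in PDGFRA-positive EOM nuclei, with 155 CPM in EOM against 16.5 CPM in QFM (log2 ratio 3.23, 2.40 to 4.19). Perineurial markers, which include SLC2A1 and CLDN1, also differed in this class, with 3 of 4 seen in each library and sums of 835 CPM in EOM against 95.1 CPM in QFM. Their part in the COL4A5 value was not tested. Satellite cell markers were at 155 CPM in EOM against 3.803 CPM in QFM, and endothelial markers at 302 and 124 CPM. COL8A1 (log2 ratio -1.55), COL4A3 (-1.58) and COL28A1 (-1.26, -2.90 to 0.17) completed the lower genes. COL28A1 changed sign with 3 marker UMIs, at 2.03, and COL4A3 with thinning, at 0.46. COL4A1 and COL4A2 were within 2-fold, at log2 ratios of -0.46 and -0.30. Genes of collagen making were counted in the same class: of 22 measured, 11 were lower and 1 was higher by 2-fold or more, beside 16.4% and 9.88% of all features, with a median log2 ratio of -0.93. They include SERPINH1, the collagen chaperone (31.0 CPM in EOM, 100.2 CPM in QFM), LOXL1, a crosslinking enzyme (18.3 and 81.1 CPM), PCOLCE, which enhances procollagen cleavage (55.0 and 178 CPM), and ADAMTS14, a procollagen protease (2.82 and 25.4 CPM). Of 6 collagen receptors measured, 1 was lower and 1 higher. ITGA11, a receptor for fibrillar collagen, stood at 80.4 CPM in EOM against 604 CPM in QFM, and ITGA1, an integrin chain that binds type IV collagen, at 56.4 and 16.5 CPM. Of 9 collagen breakdown genes measured, 3 were at least 2-fold lower and none was higher, with FAP at 176 CPM in EOM against 1391 CPM in QFM. Of 10 basement membrane partners, 2 were higher and 1 lower. NID1, which links laminin to type IV collagen, stood at 1099 CPM in EOM against 306 CPM in QFM, LAMA1 at 38.1 and 12.7 CPM, and HSPG2, the core protein of perlecan, at 185 and 496 CPM.

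**Figure D2:**
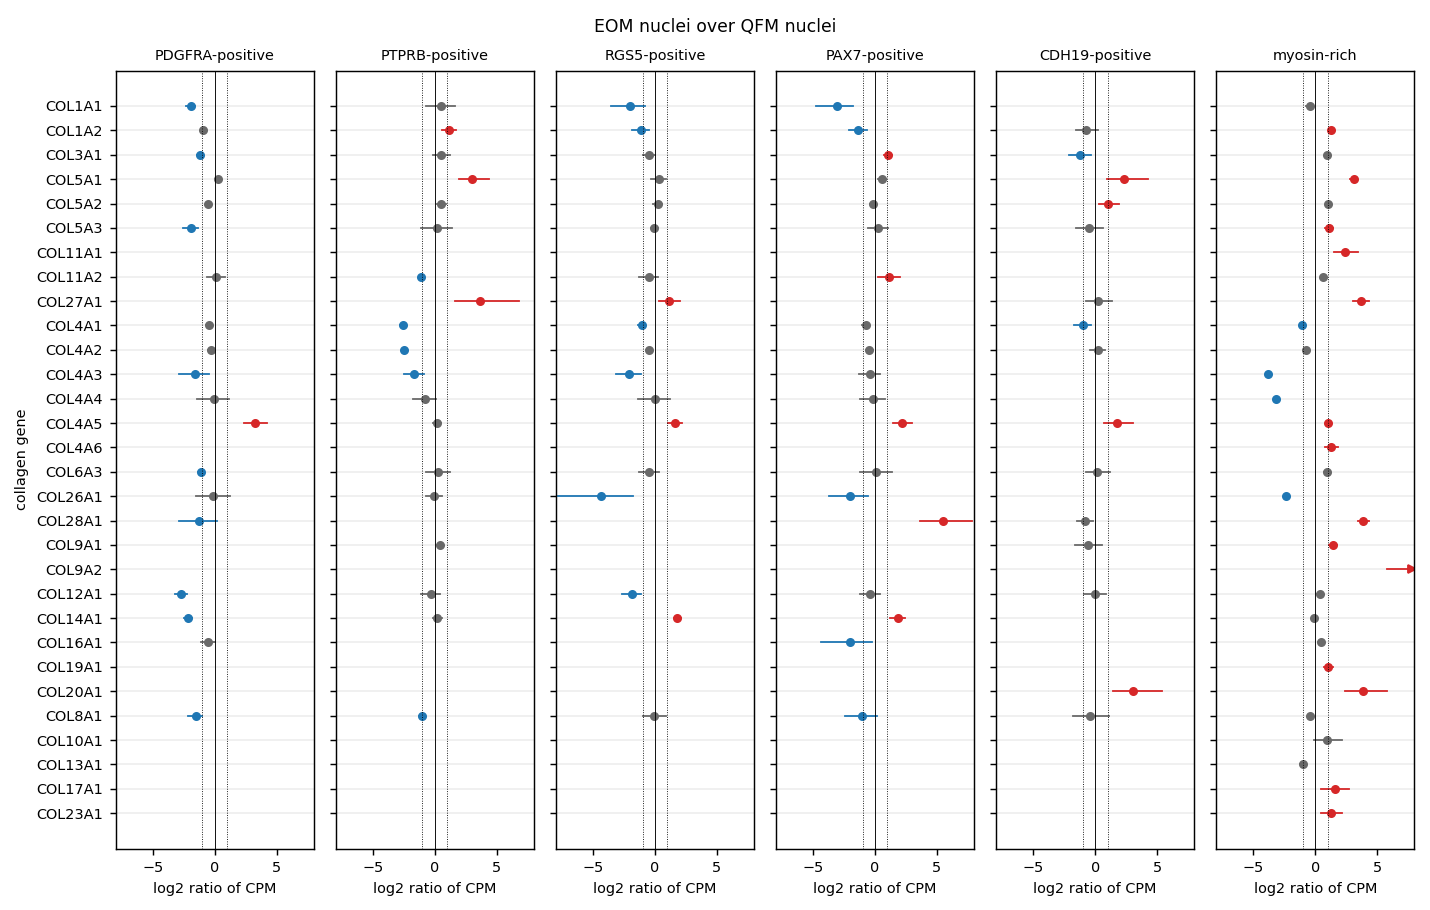
Log2 ratio of CPM, EOM nuclei over QFM nuclei, for each measured collagen (rows) in 6 barcode classes (panels); bars are 95% intervals of counting error and dotted lines mark 2-fold. Red marks genes at least 2-fold higher in EOM and blue those at least 2-fold lower; values past the axis are drawn at its edge as arrows. COL12A1 at -2.69 in PDGFRA-positive nuclei, COL4A1 at -2.58 in PTPRB-positive nuclei and COL4A3 at -3.80 in myosin-rich nuclei stand out.

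In PTPRB-positive nuclei, the endothelial class, the general basement membrane chains were lower in EOM. COL4A1 stood at 91.8 CPM in EOM against 548 CPM in QFM, for a log2 ratio of -2.58 (-2.78 to -2.38), and its partner COL4A2 at 182 and 1018 CPM, a log2 ratio of -2.48 (-2.62 to -2.34). When every nucleus was thinned to 1000 UMIs, 16.0% of PTPRB-positive EOM nuclei and 52.2% of PTPRB-positive QFM nuclei held a COL4A2 UMI, against 2.30% and 1.18% of PTPRC-positive nuclei. Before thinning the shares were 31.8% and 81.1%, and 12 and 5 shallower PTPRB-positive nuclei of EOM and QFM were left out. COL4A1 and COL4A2 are neighbours in the RefSeq gene table of the species and share a promoter region in mammals. Over the 19 collagens measured in this class, 5 were at least 2-fold lower and 3 at least 2-fold higher in EOM, beside 6.62% and 10.6% of all features. The median log2 ratio of the collagens was 0.17, beside 0.07 for all features.

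The other lower genes of the endothelial class were COL4A3 (7.001 CPM in EOM against 21.9 CPM in QFM, log2 ratio -1.64), COL8A1, a short-chain collagen of vessel walls (95.7 and 198 CPM, log2 ratio -1.05), and COL11A2 (334 and 711 CPM, log2 ratio -1.09). COL11A2, a chain of the cartilage fibril collagen type XI, was also present at 224 CPM in PTPRC-positive EOM nuclei and 206 CPM in PTPRC-positive QFM nuclei, and at 1.71 CPM in PTPRB-positive EOM cells. COL27A1 had a log2 ratio of 3.66 (1.60 to 6.81) on 18 UMIs in EOM and 2 in QFM, COL1A2 of 1.15 (0.59 to 1.72), and COL5A1 of 3.04 (1.95 to 4.34) at 18.3 CPM in EOM against 2.22 CPM in QFM. PTPRC-positive nuclei held COL27A1 at 6.39 CPM in EOM against 1.45 CPM in QFM. They held COL1A2 at 29.8 and 33.4 CPM, and COL5A1 at 12.8 and 17.4 CPM. COL4A3 was at 4.26 and 69.7 CPM there, and COL8A1 at 14.9 and 13.1 CPM. The part of this leukocyte-class level in the endothelial ratios was not tested. Fibro-adipogenic markers, all 11 seen in both, were at 1452 CPM in PTPRB-positive EOM nuclei and 1662 CPM in PTPRB-positive QFM nuclei. Of 11 basement membrane partners, 1 was at least 2-fold lower and 2 were higher: LAMA4, the laminin chain of vessel walls, stood at 232 CPM in EOM against 563 CPM in QFM (log2 ratio -1.28), and LAMA3 at 25.7 and 9.43 CPM. TIMP1, an inhibitor of collagen-cleaving proteases, stood at 8.95 CPM in EOM against 74.3 CPM in QFM. It was also at least 2-fold lower in PDGFRA-, RGS5-, PAX7-, CDH19- and PTPRC-positive EOM nuclei, but was not called lower in myosin-rich ones. In PTPRC-positive nuclei it stood at 19.2 CPM in EOM against 106 CPM in QFM.

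RGS5-positive nuclei, the mural class, gave a different order. Of 18 collagens measured, 3 were at least 2-fold higher and 6 at least 2-fold lower in EOM, beside 12.1% and 16.3% of all features. COL14A1 stood at 1047 CPM in EOM against 297 CPM in QFM, for a log2 ratio of 1.82 (1.54 to 2.10), opposite to its ratio of -2.12 in PDGFRA-positive nuclei. COL4A5 stood at 260.5 CPM in EOM against 85.6 CPM in QFM (log2 ratio 1.61, 1.07 to 2.16), and COL27A1 at 93.2 and 41.8 CPM (1.16, 0.33 to 2.02). The lower genes were COL4A3 (log2 ratio -2.08), COL1A1 (-2.04), COL12A1 (-1.83), COL1A2 (-1.14), COL4A1 (-1.06) and COL26A1 (-4.35, -9.70 to -1.75, on 1 UMI in EOM and 28 in QFM). COL26A1 was also at least 2-fold lower in PTPRC-positive EOM nuclei, at 17.0 CPM against 45.0 CPM in QFM, and so was COL4A3. With 1 marker UMI, COL1A2 changed sign, at 0.60. COL4A2 was at 680.0 CPM in EOM against 973 CPM in QFM, inside 2-fold. Other markers differed in this class as well. Fibro-adipogenic markers summed to 4593 CPM in EOM against 2265 CPM in QFM, but the direction turned without LAMA2, when the other 10 summed to 1749 CPM in EOM and 2024 CPM in QFM. Mural markers summed to 4524 and 8982 CPM, and myofibre markers to 1933 and 13024 CPM. Their part in these ratios was not tested. LAMA2, the laminin chain of muscle fibres, which is itself 1 of the 11 fibro-adipogenic markers, stood at 2843 CPM in EOM against 241 CPM in QFM, and DDR2, a receptor kinase for fibrillar collagen, at 321 and 89.6 CPM. DDR2 was also at least 2-fold higher in PTPRB-, CDH19- and PTPRC-positive and myosin-rich EOM nuclei, and within 2-fold in PDGFRA- and PAX7-positive ones. In PTPRC-positive nuclei it stood at 49.0 CPM in EOM against 7.26 CPM in QFM.

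PAX7-positive nuclei held 5 collagens that were at least 2-fold higher and 5 that were lower by 2-fold or more in EOM nuclei, among 19 measured, beside 8.75% and 13.4% of all features. COL28A1 stood at 95.6 CPM in EOM against 2.10 CPM in QFM, for a log2 ratio of 5.51 (3.59 to 8.59), on 60 and 2 UMIs. With each nucleus thinned to 1000 UMIs, QFM had none and the log2 ratio was at least 2.23 against a floor of 3 UMIs. COL4A5 stood at 94.0 CPM in EOM against 21.0 CPM in QFM (log2 ratio 2.16, 1.41 to 2.97), COL14A1 at 131 and 36.8 CPM (1.83, 1.24 to 2.44), and COL3A1 at 308 and 147 CPM (1.07, 0.74 to 1.39). COL11A2 completed the higher genes at a log2 ratio of 1.14. Among the lower genes, COL1A1 stood at 7.97 CPM in EOM against 68.3 CPM in QFM (log2 ratio -3.10), while COL1A2, COL16A1, COL26A1 and COL8A1 lay between -1.98 and -1.04. COL26A1 was lower by 2-fold or more in PTPRC-positive EOM nuclei too. COL1A2 changed sign with 1 marker UMI, at 0.31, and with thinning, at 0.11. The type V chains COL5A1 and COL5A2, collagens that satellite cells secrete for their own niche in the mouse, were within 2-fold, with COL5A2 at 387 CPM in EOM against 434 CPM in QFM. LAMA4 ran higher in EOM satellite-class nuclei, at 233 CPM against 29.4 CPM in QFM. The part of the fibro-adipogenic and myofibre markers in these values was not tested.

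The Schwann class, CDH19-positive nuclei, rested on 86 nuclei of EOM and 21 of QFM. Of 15 collagens measured, 4 were at least 2-fold higher and 2 at least 2-fold lower in EOM, beside 17.4% and 11% of all features. COL20A1, a fibril-associated collagen, stood at 318 CPM in EOM against 38.1 CPM in QFM, for a log2 ratio of 3.06 (1.46 to 5.37) on 71 and 3 UMIs. COL5A1 (log2 ratio 2.35), COL4A5 (1.80) and COL5A2 (1.05) were the other higher genes, and COL3A1 (-1.21) and COL4A1 (-1.02) the lower ones. COL28A1 had a log2 ratio of -0.85 (-1.49 to -0.20), and this class was its highest in both muscles when the myosin-rich nuclei were pooled. In EOM it stood at 246 CPM in this class, below the 348 CPM of MYH7-led myosin-rich nuclei described further on. Myofibre markers were at 2096 CPM in EOM against 11945 CPM in QFM here.

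The myosin-rich nuclei were the deepest class, with 25791197 UMIs in EOM and 25406359 in QFM, and 30 of 33 collagens were measured in them. COL2A1, COL6A5 and COL8A2 were the 3 not measured, and these stayed below the minimum in every other class comparison between the muscles too. Of the 30, 14 were at least 2-fold higher and 4 at least 2-fold lower in EOM, beside 33.4% and 9.18% of all features. The median log2 ratio was 0.99 for the collagens and 0.40 for all features. Under a median ratio scaling, 8 collagens were higher and 6 lower, beside 25.7% and 15.3% of all features. The lowest ratios were those of restricted type IV chains. COL4A3 stood at 38.0 CPM in EOM against 529 CPM in QFM, for a log2 ratio of -3.80 (-3.89 to -3.71), and COL4A4 at 23.3 and 211 CPM, a log2 ratio of -3.18 (-3.30 to -3.05).

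COL4A3 and COL4A4 are neighbours in the RefSeq gene table, and COL4A5, whose product joins them, ran the other way, at 154 CPM in EOM against 76.4 CPM in QFM. Its log2 ratio of 1.01 was 0.62 under the median ratio scaling. After thinning to 1000 UMIs, 3.53% of myosin-rich EOM nuclei and 38.3% of myosin-rich QFM nuclei held a COL4A3 UMI, against 9.69% and 80.6% before thinning. In PTPRC-positive nuclei COL4A3 was at 4.26 CPM in EOM against 69.7 CPM in QFM, with thinned shares of 0% and 4.73%. COL26A1, an extracellular matrix protein with a collagenous part, stood at 57.5 CPM in EOM against 290.0 CPM in QFM, for a log2 ratio of -2.34 (-2.42 to -2.25). In PTPRC-positive nuclei COL26A1 was at 17.0 CPM in EOM against 45.0 CPM in QFM. COL4A1 was lower in myosin-rich nuclei too, at 21.0 CPM in EOM against 43.5 CPM in QFM. COL13A1, a transmembrane collagen of the neuromuscular junction in mouse and human, was at 7.64 CPM in EOM against 14.9 CPM in QFM (log2 ratio -0.97).

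Among the genes higher in EOM fibre nuclei, COL9A2 stood at 12.2 CPM on 315 UMIs in EOM and 0.0394 CPM on 1 UMI in QFM, a log2 ratio of 8.28 (5.79 to 13.59). COL28A1 (25.1 CPM in EOM, 1.69 CPM in QFM), COL20A1 (2.25 and 0.157 CPM), COL27A1 (11.9 and 0.945 CPM) and COL5A1 (38.3 and 4.49 CPM) had log2 ratios between 3.09 and 3.89. The markers of other cell types also differed in this class, with fibro-adipogenic markers at 1258 CPM in EOM against 543 CPM in QFM (751 and 260 CPM without LAMA2), and endothelial markers at 434 and 81.8 CPM. Their part was not tested. Matrix partners are to be read beside the 33.4% of all features that were higher here. By 2-fold or more, 13 of 24 collagen making genes were higher and 1 lower, and 4 of 8 receptors, 6 of 10 breakdown genes and 7 of 11 basement membrane partners were higher, with none of these lower. The lower making gene was PLOD2, which hydroxylates lysine in collagen, at 24.8 CPM in EOM against 139 CPM in QFM. LAMA4 stood at 273 CPM in EOM against 11.8 CPM in QFM, and DDR2 at 149 and 6.77 CPM.

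**Figure D3:**
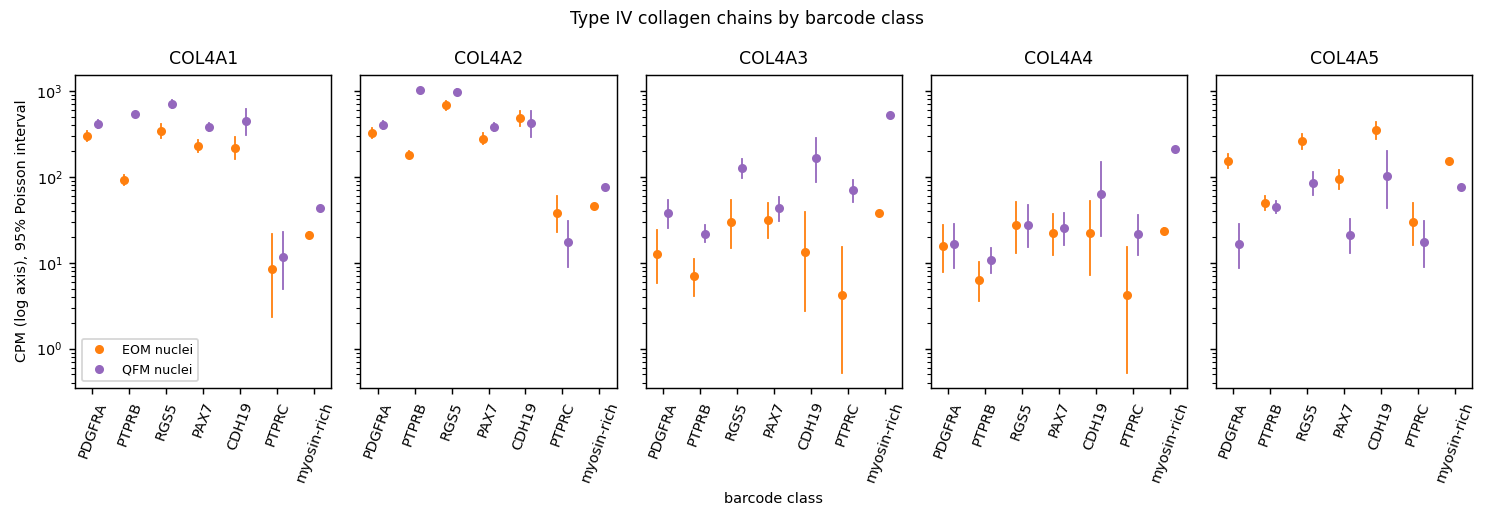
CPM of 5 type IV collagen chains on a log axis in 7 barcode classes, with EOM nuclei (orange) left of QFM nuclei (purple) and 95% Poisson intervals. COL4A1 and COL4A2 are far apart in PTPRB-positive nuclei (91.8 and 548 CPM for COL4A1), COL4A3 and COL4A4 in myosin-rich nuclei, and COL4A5 is higher in EOM in PDGFRA-, RGS5-, PAX7- and CDH19-positive nuclei.

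Seen by chain, COL4A1 was lower in EOM at the point estimate in all 6 classes of the nuclei libraries that the rule names or that stand in for them, with log2 ratios between -2.58 and -0.46. COL4A5 was higher in EOM in each of those classes, with ratios between 0.17 in PTPRB-positive nuclei and 3.23 in PDGFRA-positive nuclei, and its interval in the PTPRB-positive class included 0. In those 6 classes, COL14A1 was at least 2-fold higher in RGS5- and PAX7-positive EOM nuclei, at least 2-fold lower in PDGFRA-positive ones, and within 2-fold in PTPRB-positive and myosin-rich ones. It had under 20 UMIs in the CDH19-positive class. In PTPRC-positive nuclei, the class that stands for the level outside the main sources, it was at 36.2 CPM in EOM against 16.0 CPM in QFM, for a log2 ratio of 1.18 (0.00 to 2.42). The same leukocyte class held COL4A5 at 29.8 CPM in EOM against 17.4 CPM in QFM, and COL4A1 at 8.52 and 11.6 CPM. Both chains thus had the same direction there as in the 6 classes. Under every alternative run, COL4A1 stayed below 0 and COL4A5 above 0 in each of the 6 classes.

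Myosin-rich nuclei were then divided by the heavy chain gene with the most UMIs in each nucleus, a split made after the values were seen. EOM had 4631 nuclei led by MYH13, the myosin of extraocular muscle, and 1410 led by MYH15. Another 995 were led by the row named MYH3, the symbol of the embryonic myosin, and 125 by MYH7, the slow myosin. QFM had 3837 led by MYH3 and 783 led by MYH7. MYH1 and MYH2, the fast myosins of limb muscle, and MYH8 have no symbol in the nuclei tables, so the leading chain is the leading one of the 6 chains measured. Whether the row named MYH3 counts the embryonic myosin was not tested, so MYH3-led names the row only. COL28A1 stood at 348 CPM in MYH7-led EOM nuclei, against 8.68 CPM in MYH13-led, 25.2 CPM in MYH15-led and 50.6 CPM in MYH3-led EOM nuclei, and 0.999 CPM in MYH7-led QFM nuclei. COL4A3 stood at 155 CPM in MYH7-led EOM nuclei and between 31.9 and 52.0 CPM in the other EOM nuclei, and in QFM at 478 CPM in MYH7-led and 542 CPM in MYH3-led nuclei. COL9A1 followed the same pattern in EOM, with 78.7 CPM in MYH7-led and 8.36 CPM in MYH13-led nuclei. COL5A2 was at 125 CPM in MYH7-led and 28.8 CPM in MYH3-led QFM nuclei, but between 87.5 and 113 CPM in all 4 EOM groups. COL9A2 was highest in MYH15-led EOM nuclei at 26.2 CPM, against 8.17 CPM in MYH13-led ones.

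**Figure D4:**
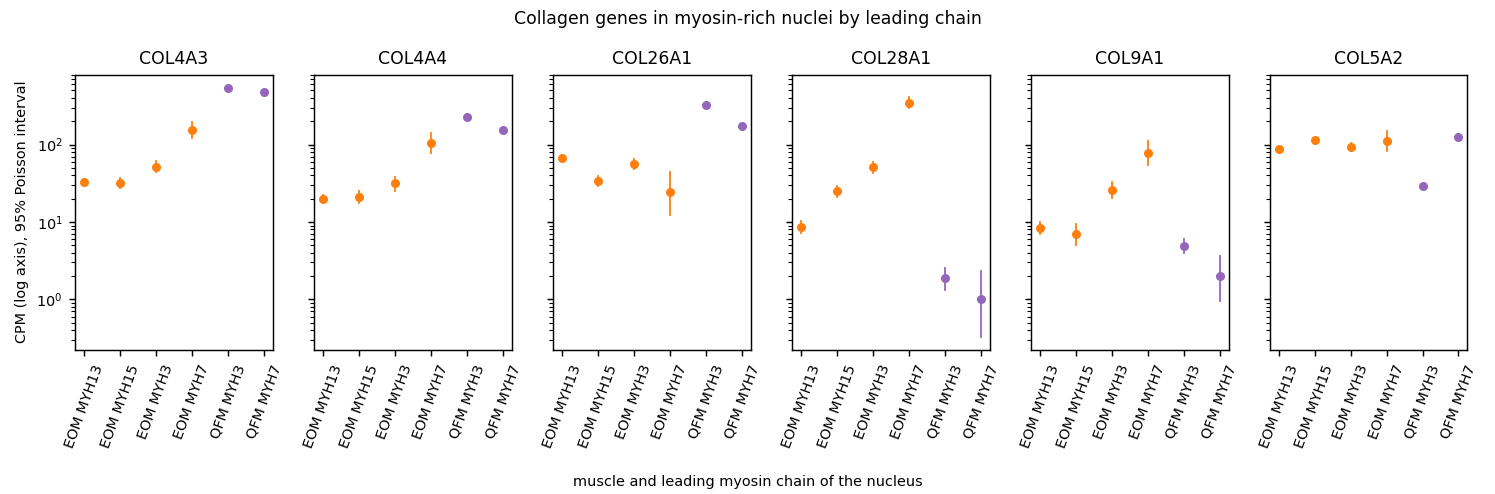
CPM (log axis, 95% Poisson intervals) of 6 collagens in myosin-rich nuclei grouped by muscle and by the myosin heavy chain with the most UMIs; EOM is orange and QFM purple. COL28A1 reaches 348 CPM in MYH7-led EOM nuclei, and COL4A3 and COL4A4 are higher in both QFM groups than in any EOM group.

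The comparison of EOM cells with EOM nuclei sets the preparations beside each other within 1 muscle. Their gene tables differ too, with 33368 features for cells and 38550 for nuclei. Preparation and gene table therefore cannot be told apart in these ratios. COL1A1, the type I chain, was higher in cells in each class where it was measured, while COL4A2 of type IV was lower. COL1A1 stood at 30.7 CPM in PTPRB-positive EOM cells and 5.45 CPM in PTPRB-positive EOM nuclei (log2 ratio 2.50, 1.41 to 3.62). In RGS5-positive barcodes it stood at 140.4 CPM in cells and 16.5 CPM in nuclei (3.09, 1.92 to 4.58), and in CDH19-positive barcodes at 218 and 31.4 CPM (2.80, 1.59 to 4.23). Of 7 collagens measured in PTPRC-positive barcodes, 1 was at least 2-fold higher and 4 lower in cells, beside 23.1% and 53.3% of all features. The 1 higher was COL1A1, at 36.2 CPM in cells and 2.13 CPM in nuclei (4.09, 1.48 to 9.45, on 25 and 1 UMIs). The leukocyte class, which should lack the gene, thus showed the same direction. PDGFRA-positive cells numbered 23, and in them COL1A1 was at 2013 CPM in cells against 111 CPM in nuclei (4.18, 3.67 to 4.68). COL1A2 in that class was at 2315 CPM in cells and 505 CPM in nuclei (2.20, 1.80 to 2.57).

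Of the collagens measured, 3 of 15 were at least 2-fold higher and 6 lower in PTPRB-positive cells than in nuclei, beside 21.3% and 48% of all features. In RGS5-positive cells 1 of 15 was higher and 11 were lower, beside 27.1% and 47%. In CDH19-positive cells 3 of 16 were higher and 6 lower, beside 20.2% and 51%, and in PDGFRA-positive cells 3 of 11 were higher and 6 lower, beside 20.2% and 35.3%. All features leaned toward nuclei, with median log2 ratios between -1.03 and -0.44. A median ratio scaling reduced this to medians between -0.20 in PDGFRA-positive and 0 in RGS5-positive barcodes. Under it 6 collagens were higher and 4 lower in PTPRB-positive cells, beside 31.9% and 32.7% of all features, and 2 and 7 in RGS5-positive cells, beside 37.7% and 35.1%. In CDH19-positive cells 6 were higher and 3 lower, beside 30.4% and 29.2%, and in PDGFRA-positive cells 4 and 4, beside 24.2% and 30.0%. COL4A2 stood at 39.0 CPM in RGS5-positive cells and 680.0 CPM in RGS5-positive nuclei, a log2 ratio of -4.12 (-4.78 to -3.53), while COL4A1 stood at 161 and 343 CPM (-1.09). COL5A2 and COL5A3 had log2 ratios of -3.38 and -3.37 in the same class. In the PTPRB class COL11A2 was at 1.71 CPM in cells and 334 CPM in nuclei, a log2 ratio of -7.61. COL20A1, by contrast, was at 985 CPM in CDH19-positive cells and 318 CPM in CDH19-positive nuclei (1.63, 1.21 to 2.06). In the PDGFRA class COL5A3, COL8A1, COL11A2 and COL12A1 had no UMI in cells, where 3 UMIs equal 101 CPM, so no ratio could be given.

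**Figure D5:**
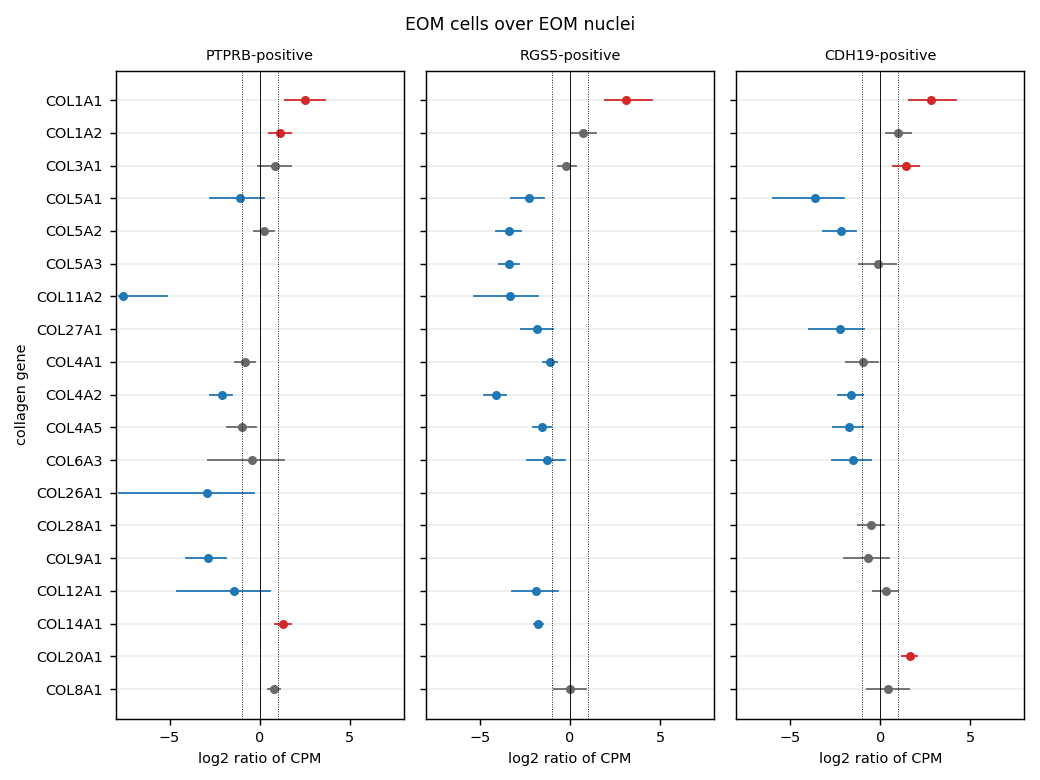
Log2 ratio of CPM, EOM cells over EOM nuclei, for each measured collagen in PTPRB-, RGS5- and CDH19-positive barcodes; bars are 95% intervals of counting error and dotted lines mark 2-fold. COL1A1 lies at 2.50, 3.09 and 2.80 in the 3 classes, and COL4A2 lies below -1 in each.

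The collagens with a symbol in the cell table only divided between the classes. COL9A3, which assembles with COL9A1 and COL9A2, stood at 218 CPM in CDH19-positive cells and at most 1.71 CPM in PTPRB-, NOTCH3-, RGS5- and PTPRC-positive cells. COL15A1, a multiplexin of basement membranes, stood at 267 CPM in CDH19-positive cells and 235 CPM in PDGFRA-positive cells, against 10.1 CPM in PTPRC-positive ones. COL18A1, the multiplexin that releases endostatin, was at 106 CPM in RGS5-positive, 99.8 CPM in NOTCH3-positive, 84.4 CPM in CDH19-positive and 63.2 CPM in PTPRB-positive cells, against 2.90 CPM in PTPRC-positive ones. COL6A1 and COL6A2, the partners of COL6A3, were at 738 and 906 CPM in the 23 PDGFRA-positive cells and at 144 and 267 CPM in NOTCH3-positive cells. COL6A2 was at 274 CPM in CDH19-positive cells, and COL6A1 at 142 CPM in RGS5-positive cells. COL21A1 was at 71.8 CPM in RGS5-positive and 60.3 CPM in NOTCH3-positive cells. COL7A1, which anchors epithelium to dermis, had UMIs in PTPRC-positive cells alone among the classes, at 2.90 CPM. NOTCH3-positive and RGS5-positive cells gave close levels for COL14A1, at 339 and 310.5 CPM, and for COL4A1, at 179 and 161 CPM. A cell with both markers counts in both classes, so these levels are not independent. COL4A2 was at 60.3 CPM in NOTCH3-positive cells and lower in RGS5-positive ones.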

How the data were processed

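The deposited tables hold raw UMI counts per gene and barcode. The nuclei tables were written by Cell Ranger 7.2.0 per the file headers, and Cell Ranger 7.2.0 and Seurat 5.2.1 are named in the submitters' processing notes. The sources used here do not give the genome build, annotation, intron counting or strand setting. Of the cell rows, 723 were named through NCBI gene IDs in the RefSeq gene table.

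Barcodes with at least 200 genes, at least 500 UMIs and at most 10% (nuclei) or 20% (cells) mitochondrial UMIs were kept. Scrublet, run in scanpy 1.11.5 at an expected rate of 6%, removed 202 EOM cells (2.77%), 2692 EOM nuclei (16.3%) and 1934 QFM nuclei (15.6%). It used an exact neighbour search, chosen after an approximate one gave slightly different calls between runs.

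UMIs were summed per class and divided by the library's class total (CPM). Ratios carry conditional exact binomial intervals, levels exact Poisson intervals and shares Clopper-Pearson intervals, all at 95% and for counting error only. Genes with at least 20 UMIs over both sums counted as measured, and 3 UMIs were the floor. No test between conditions was possible with 1 library per group. Any collagen could be named. Companion genes came from 4 lists. Those named were among the 4 of a list and class with the largest absolute log2 ratio, at 20 CPM or more in the higher library. Not all companion genes past 2-fold were named. The members and lists were chosen with earlier results of these data known. The method was tested on simulated data. Further tools were matplotlib 3.10.9, scikit-learn 1.9.0, pandas 2.3.3, scipy 1.17.1, numpy 2.4.6 and Python 3.11.15.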

Additional observations from a re-analysis of the deposited data

Results flagged for a closer look

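COL14A1 was flagged because its EOM over QFM ratio had opposite signs in different classes of nuclei. Its log2 ratio was 1.83 in PAX7-positive nuclei and -2.12 in PDGFRA-positive nuclei, a gap of 3.95, and the difference was not tested. Over the alternatives run the ratio lay between 1.10 and 2.95 in PAX7-positive nuclei and between -2.49 and -1.77 in PDGFRA-positive nuclei. Fibro-adipogenic markers summed to 3644 CPM in PAX7-positive EOM nuclei against 4827 CPM in PAX7-positive QFM nuclei. In PTPRC-positive nuclei, the leukocyte class, the log2 ratio of COL14A1 was 1.18. Without LAMA2 the fibro-adipogenic sums of PAX7-positive nuclei were 1938 CPM in EOM and 2219 CPM in QFM.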

How the results depend on the processing

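Over the alternatives, 1898 single-gene ratios were recomputed for 177 genes and comparisons; 1683 stayed within the counting interval, 205 moved and 10 changed sign. No paired analysis was possible because each group has 1 library and no replicate number. Results for NOTCH3-positive nuclei could not be computed, and RGS5 was used instead, chosen after seeing the data, as was the comparison of CDH19-positive cells with nuclei. The cause of each change below was not tested.

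For EOM over QFM nuclei, the proportionally larger changes in the counts of collagens at least 2-fold higher or lower are listed. Each is given with the number measured and, in parentheses, the share of all features called the same way. Smaller changes are not listed, here or for cells over nuclei. In myosin-rich nuclei, for example, 12 of 30 (33.7%) were higher with called doublets kept and 11 of 26 (30.6%) when thinned, against 14 of 30 (33.4%) in the main run. With 1 marker UMI, 2 of 20 (10.5%) were higher in PDGFRA-, 5 of 21 (17.7%) in RGS5- and 8 of 22 (11.3%) in PAX7-positive nuclei. With 3 marker UMIs, 1 of 18 (10.4%) was higher in PTPRB- and 3 of 17 (14.5%) were lower in PAX7-positive nuclei. In CDH19-positive nuclei 6 of 18 (10.3%) were lower with other markers allowed and 4 of 17 (12.4%) with called doublets kept. A stricter mitochondrial limit left 3 of 18 (8.42%) higher in PAX7-positive nuclei. Thinning to 1000 UMIs left 3 of 11 (16.1%) lower in RGS5-, 2 of 11 (12.7%) lower in PAX7- and 2 of 9 (18.3%) higher in CDH19-positive nuclei. Median ratio scaling left 8 of 30 (25.7%) higher in myosin-rich nuclei. With 1 count, 3 of 24 (15.6%) were higher in PDGFRA-, 5 of 28 (17.8%) in PTPRB-, 6 of 23 (18.3%) in RGS5- and 9 of 27 (15.4%) in PAX7-positive nuclei, and 9 of 24 (24.3%) were lower in CDH19-positive ones. With 50 counts, 2 of 13 (11.7%) were lower in PAX7- and 1 of 10 (8.68%) in CDH19-positive nuclei.

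For EOM cells over EOM nuclei, 1 marker UMI gave 5 of 19 (20.7%) higher in PDGFRA- and 13 of 21 (48.0%) lower in PTPRB-positive barcodes, and 3 marker UMIs gave 0 of 6 (20.6%) lower in PDGFRA-positive ones. In PTPRB-positive barcodes 10 of 18 (47.6%) were lower with other markers allowed, and 1 of 20 (21.4%) was higher and 12 (48.0%) lower with doublets kept. The stricter mitochondrial limit gave 3 of 10 (20.4%) lower in PDGFRA-, 3 of 12 (39.6%) lower in PTPRB- and 2 of 14 (20.5%) higher in RGS5-positive barcodes. Thinning gave 3 of 9 (32.0%) lower in PDGFRA-, and 2 of 10 (32.8%) higher and 7 (45.5%) lower in RGS5-positive ones. Median ratio scaling gave 6 of 15 (31.9%) higher in PTPRB-, 2 of 15 (37.7%) higher and 7 (35.1%) lower in RGS5-, and 6 of 16 (30.4%) higher and 3 (29.2%) lower in CDH19-positive ones. Leaving out the 100 most abundant features gave 5 of 15 (24.3%) higher in PTPRB-positive ones, and 1 count gave 5 of 13 (40.4%) higher in PDGFRA-, 6 of 25 (25.2%) in PTPRB- and 6 of 22 (25.0%) in CDH19-positive ones.

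Sign changes are listed for ratios that were at least 2-fold in the main run. Between muscles they were COL1A2 in RGS5-positive nuclei (0.60 with 1 marker UMI) and in PAX7-positive nuclei (0.31 with 1 marker UMI, 0.11 thinned). In PDGFRA-positive nuclei they were COL28A1 (2.03 with 3 marker UMIs) and COL4A3 (0.46 thinned). Between cells and nuclei they were COL16A1 in the PDGFRA class (0.68 with 1 marker UMI, 0.52 with other markers allowed, 0.94 thinned) and, under the stricter mitochondrial limit, COL12A1 (0.65) and COL1A2 (-0.37) in the PTPRB class. Depth limits the PDGFRA-positive cells (23) and CDH19-positive QFM nuclei (21) most.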
